A study of Drosophila melanogaster with 16 samples.

Results

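Larvae kept for 8 h on a high-sugar diet (HSD) were compared with larvae kept for 8 h on a low-sugar diet (LSD), the time at which both diets were sampled. The HSD group at 8 h held 3 libraries, numbered replicates 2, 3 and 4, and the LSD group held 4, numbered 1 to 4. Together they were 7 of the 14 libraries in the deposited table, and they were chosen by their labels alone. Every library was made from whole Drosophila melanogaster larvae whose genotype is labelled WT, with no transgene, mutation or drug named, so many tissues share each value. The animals were reared as first instar larvae on LSD, which is 10% yeast. Early in the second instar they were transferred to HSD, which adds 15% sucrose to 10% yeast, or to LSD again, and blue food dye was in the food of both. The labels mark HSD 8 h replicate 1 as a removed outlier, and it was not analysed here. Whether the replicates are separate cultures is not said, and the p-values then measure only how these samples scatter, which may be technical scatter. In whole animals, fewer cells of a type and less RNA per cell cannot be told apart.

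The values are normalised read counts, that is the reads of a gene scaled by an effective library size, over 16300308 to 25284073 reads per library. At that depth 3 reads in a library gave a value of 0.117 to 0.182. Over all genes, Pearson's r between log2 levels was 0.973 to 0.991 for the 9 pairs of libraries within a group. The first principal component held 54.4% of the variance and set the diets apart, at -29.3 to -27.2 in HSD libraries and at 6.66 to 32.1 in LSD libraries. LSD replicate 2 lay closest to HSD. The libraries also differed in TwdlJ, a Tweedle cuticle protein gene whose transcript comes and goes with the molt. It lay at 35.9, 15.8 and 42.4 in HSD replicates 2, 3 and 4, and at 0.938, 17.4, 33.6 and 0.727 in LSD replicates 1 to 4. Thus 2 of the 4 LSD libraries were low in it, and no HSD library was. The 42 Tweedle and Osiris genes tested did not follow TwdlJ in every HSD library. Their median log2 deviation from the LSD mean was -0.30, -0.32 and 0.26 in HSD replicates 2, 3 and 4. It was -0.22, 0.51, 0.28 and -0.39 in LSD replicates 1 to 4, so HSD replicates 2 and 3 lay near LSD replicates 1 and 4. Counts of genes are therefore also given without LSD replicates 2 and 3 and, separately, without LSD replicates 1 and 4. The part of the molt in the results was not tested beyond that.

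In flies, sugar that enters the cell is sensed as sugar phosphate by the transcription factor Mondo, the homologue of mammalian ChREBP, which binds DNA together with its partner Mlx, encoded by bigmax. Their known targets include the transcription factors sugarbabe and cabut and enzymes that turn sugar carbon into fat, a task of the larval fat body and gut. Larvae that lack the partner protein do poorly on sugar while they can live on yeast.

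After 8 h, 2473 of 10015 genes tested differed between HSD and LSD, which is 24.7% of them. A gene was called when its limma p-value, adjusted over all genes tested by the Benjamini-Hochberg method, was under 0.05. Of these genes 1279 were higher in HSD (12.8%) and 1194 were lower (11.9%). The HSD and LSD libraries did not overlap for 3799 genes (37.9%), and 2461 of the 2473 called genes were among them. Non-overlap thus adds little to a call. Rises were larger than falls: 333 called genes were at least 2-fold higher in HSD and 96 at least 2-fold lower, and 62 were at least 4-fold higher and 5 at least 4-fold lower. The median fold was 1.55 among genes called higher and 1.40 among genes called lower. The median log2 difference of all genes was -0.01.

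The number of calls depended on single libraries. It was 1252, 1395 and 1326 without HSD replicates 2, 3 and 4. Without LSD replicates 1, 2, 3 and 4 it was 1481, 2834, 2143 and 2407. Leaving out LSD replicates 2 and 3 gave 2307 calls (1315 higher and 992 lower), and leaving out LSD replicates 1 and 4 gave 1182 (567 higher and 615 lower). Each gene group below is to be read against the share of all genes called in the same direction, 12.8% higher or 11.9% lower. For both directions together that share is 24.7%. The gene lists were chosen with earlier results of these data known, so a count above the share describes the listed genes and is no test.

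**Figure D1:**
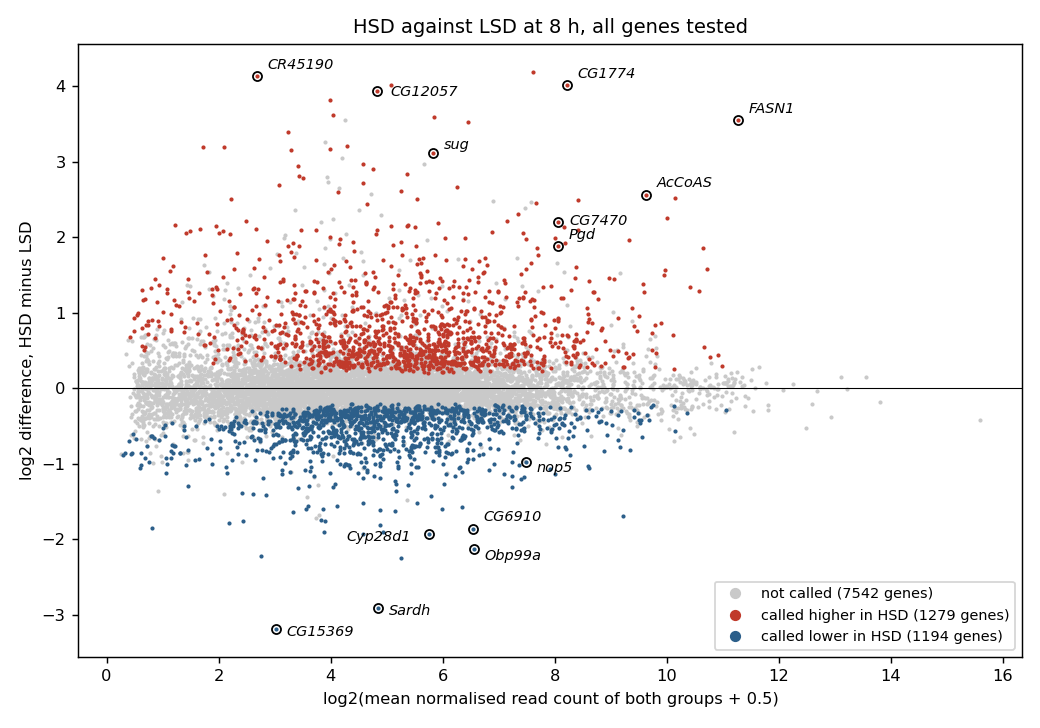
Each point is 1 of 10015 genes: the horizontal axis is log2 of its mean normalised read count over both groups plus 0.5, the vertical axis its log2 difference, HSD minus LSD, and red and blue points were called higher and lower in HSD. The points called higher reach a log2 difference of 4.19 (CG14205, the unlabelled red point above CG1774), while the lowest one is CG15369 at -3.19.

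Several genes of sugar sensing were higher in HSD. Of 18 genes of sugar sensing and its regulators 9 were called higher and 0 lower, against 12.8% and 11.9% of all genes, and the median log2 difference of the list was 0.45. Without HSD replicate 2 or without HSD replicate 3 this count was 5. Sugarbabe (sug, FBgn0033782), a zinc finger factor that drives lipogenic genes, lay at 93.1, 114 and 95.7 in HSD replicates 2, 3 and 4 and at 10.7, 12.9, 10.1 and 11.1 in LSD replicates 1 to 4. Every HSD value was thus several times every LSD value, and the difference was 8.67-fold (log2 3.12, SE 0.11, adjusted p = 3.07e-05). Cabut (cbt, FBgn0043364), a repressor of Pepck and of other sugar-regulated genes, lay at 120, 139 and 126 in HSD and at 42.7, 55.6, 42.0 and 48.9 in LSD. Mondo (FBgn0032940) lay at 272, 266 and 266 in HSD, against 119, 141, 115 and 133 in LSD, and its 3 HSD values were closer together than its 4 LSD values. Its log2 difference was 1.08 (SE 0.09, adjusted p = 0.000548). The partner gene bigmax (FBgn0039509) had 23.2, 24.5 and 19.7 in HSD and 13.7, 13.1, 13.5 and 17.8 in LSD. Its log2 difference of 0.62 (SE 0.13, adjusted p = 0.0131) rested on single libraries, since the adjusted p was 0.055 without HSD replicate 2 and 0.0545 without HSD replicate 3. It was 0.0577 without LSD replicates 2 and 3. The lipogenic regulator SREBP did not pass, at 325 ± 24.9 in HSD and 262 ± 38.3 in LSD (SD, n = 3 and 4; log2 0.32, adjusted p = 0.101). In the reference annotation sug overlaps CG13319, and cbt and bigmax each overlap a gene on the other strand. The sources used here do not give the strand setting of the read counting.

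Of 26 peptide hormone genes 3 were called higher and 1 lower (11.5% higher, below the 12.8% of all genes), with a median log2 difference of -0.04. The 1 lower was 0 without any 1 library other than LSD replicate 2, and the 3 higher were 2 to 4 over the same settings. The activin ligand Dawdle (daw, FBgn0031461), a target of Mondo in the fat body that represses gut amylase, lay at 58.6, 57.2 and 61.9 in HSD replicates 2, 3 and 4 and at 14.5, 19.6, 15.6 and 18.8 in LSD replicates 1 to 4, with a log2 difference of 1.77 (SE 0.12, adjusted p = 0.000244). Of 15 genes of the activin and BMP pathway 4 were called higher and 0 lower. Besides daw these included the ligand myoglianin (myo), at 60.7 ± 0.876 in HSD and 45.4 ± 1.9 in LSD (SD, n = 3 and 4; log2 0.42, adjusted p = 0.00394). The type II receptor wishful thinking (wit) averaged 28.9 ± 0.578 in HSD and 18.5 ± 2.51 in LSD (log2 0.64, adjusted p = 0.0067). For both genes all HSD values exceeded all LSD values.

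Among genes of insulin, adipokinetic hormone (AKH) and TOR signaling, 8 of 31 were called higher and 2 lower, and the median log2 difference was 0.03 (-0.03 under quantile normalization). The receptor of AKH (AkhR, FBgn0025595), through which the fat body is told to release stores, lay at 32.5, 36.4 and 38.6 in HSD and at 8.83, 16.9, 12 and 11.8 in LSD (log2 1.53, SE 0.19, adjusted p = 0.00237). Thor (FBgn0261560), the 4E-BP inhibitor of translation, lay at 479, 597 and 403 in HSD and at 144, 140, 118 and 274 in LSD (log2 1.61, SE 0.29, adjusted p = 0.00763). LSD replicate 4 stood apart from the other LSD libraries, yet below every HSD library. The gene of CCHamide-2 (CCHa2), a hormone from gut and fat body that acts on the insulin-producing cells, lay at 67.4, 62.6 and 81.1 in HSD and at 33.1, 49.4, 32.3 and 28.3 in LSD. The log2 difference of CCHa2 was 0.99 (SE 0.19, adjusted p = 0.00987, and 0.0697 without LSD replicates 1 and 4). The tachykinin gene (Tk), expressed in enteroendocrine cells and neurons, averaged 16.1 ± 1.12 in HSD and 10.8 ± 1.17 in LSD (log2 0.56, adjusted p = 0.00798).

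Among insulin-like peptide genes, Ilp2, made by the brain's insulin-producing cells, had 15.7, 15.9 and 16.5 in HSD and 21.4, 17.3, 27.1 and 17.7 in LSD. Its groups did not overlap, but it missed the threshold (log2 -0.35, SE 0.15, adjusted p = 0.136), except with all 14 libraries in the fit (0.0473) and with array weights (0.0376). Ilp6, the fat body insulin-like peptide, averaged 11.5 ± 0.763 in HSD and 16.4 ± 1.76 in LSD (SD, n = 3 and 4; log2 -0.49, adjusted p = 0.0127). Its call ended without HSD replicate 3 (0.0524), without HSD replicate 4 (0.0539) and without LSD replicates 2 and 3 (0.0507). For the insulin, AKH and TOR list the count of 8 called higher was 3, 3 and 4 without HSD replicates 2, 3 and 4 and 3 without LSD replicate 1. It was 4 without LSD replicates 2 and 3 and 3 without LSD replicates 1 and 4, and the 2 called lower were 0 to 2 without any 1 library.

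**Figure D2:**
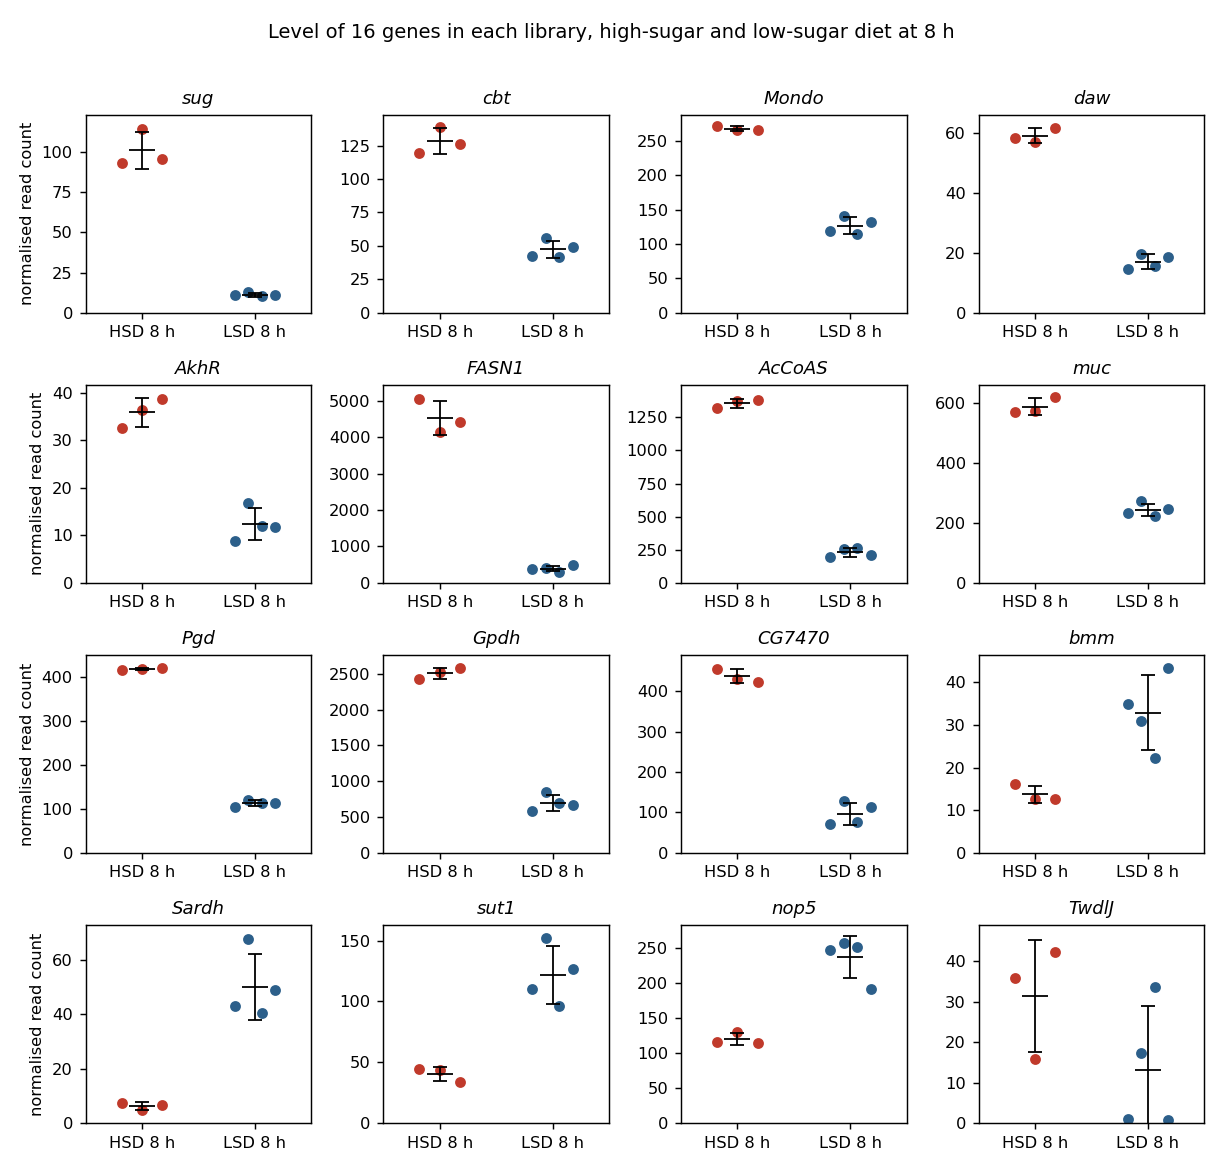
Each panel plots the normalised read count (vertical axis, from 0) of 1 gene in every library, with HSD 8 h replicates 2 to 4 as red points left of LSD 8 h replicates 1 to 4 as blue points; horizontal lines are means and bars are 1 SD, cut at 0 for TwdlJ. The groups do not overlap in 15 of the 16 panels, the exception being TwdlJ, where LSD replicates 2 and 3 lie within the HSD range. These genes were picked for the figure, so that count describes only them, and the groups do not overlap for 37.9% of all genes tested.

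From pyruvate onward, many genes that carry sugar carbon into fat were higher in HSD. Several glycolytic enzymes before pyruvate, chosen after their values were seen, differed by less than the spread between replicates. Pyruvate kinase (PyK) averaged 1380 ± 20.1 in HSD and 845 ± 40.4 in LSD (SD, n = 3 and 4), and lactate dehydrogenase (ImpL3), which takes pyruvate to lactate, was lower in HSD at 484 ± 6.39, against 712 ± 60.1 in LSD (log2 -0.55, adjusted p = 0.00393). The mitochondrial pyruvate carrier Mpc1 lay at 205, 203 and 225 in HSD and at 129, 136, 136 and 130 in LSD (log2 0.66, SE 0.07, adjusted p = 0.00123). Next in line is the pyruvate dehydrogenase complex, and all 4 measured subunit genes were called higher, with log2 differences of 0.75 to 1.27 and a median of 0.99. Its E2 subunit gene midline uncoordinated (muc, FBgn0283658) lay at 571, 573 and 622 in HSD and at 234, 272, 224 and 246 in LSD (log2 1.27, SE 0.08, adjusted p = 0.000263). CG11876, the E1 beta subunit, had 503, 512 and 539 in HSD and 235, 263, 258 and 238 in LSD (log2 1.06). The E1 alpha subunit l(1)G0334 averaged 734 ± 18.3 in HSD and 386 ± 16.2 in LSD (log2 0.93), and the E3 subunit CG7430 had a log2 difference of 0.75.

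The tricarboxylic acid (TCA) cycle beyond this complex differed less. Of its 19 other listed genes 5 were called higher and 0 lower, and their median log2 difference was 0.18. Citrate synthase (kdn) averaged 736 ± 19 in HSD and 633 ± 58.5 in LSD and did not pass (log2 0.22, adjusted p = 0.104). The isocitrate dehydrogenase gene Idh averaged 837 ± 48.0 in HSD and 826 ± 72.3 in LSD (log2 0.02, adjusted p = 0.894). With the complex included, the count of 9 of 23 was 4, 5 and 4 without HSD replicates 2, 3 and 4, 5 without LSD replicate 1, and 4 without LSD replicates 1 and 4. Of 65 genes of the respiratory chain and ATP synthase 7 were called higher and 0 lower, 10.8%, which is below the 12.8% of all genes. That count was 2, 3 and 2 without HSD replicates 2, 3 and 4, 3 without LSD replicate 1, 20 without LSD replicate 3, 18 without LSD replicates 2 and 3, and 0 without LSD replicates 1 and 4.

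Genes that make fatty acids from acetyl-CoA held some of the largest differences. ATP citrate lyase (ATPCL), which turns exported citrate into acetyl-CoA, averaged 1225 ± 77.5 in HSD and 676 ± 67.2 in LSD (SD, n = 3 and 4; log2 0.86, adjusted p = 0.00171). Acetyl-CoA carboxylase (ACC, FBgn0033246), the committing step, lay at 2093, 1824 and 1898 in HSD replicates 2, 3 and 4 and at 310, 422, 275 and 359 in LSD replicates 1 to 4, a 5.73-fold difference (log2 2.52, SE 0.15, adjusted p = 0.000132). Fatty acid synthase 1 (FASN1, FBgn0283427) lay at 5044, 4136 and 4425 in HSD and at 391, 412, 287 and 479 in LSD (log2 3.55). The other fatty acid synthases did not share in this. FASN2 had 112, 103 and 114 in HSD and 85.0, 110, 95.3 and 87.6 in LSD (log2 0.22, adjusted p = 0.157), and FASN3 had 229, 265 and 197 in HSD and 302, 270, 304 and 280 in LSD (log2 -0.34, adjusted p = 0.0574). Of 16 genes of fatty acid synthesis and desaturation 9 were called higher and 0 lower, with a median log2 difference of 0.78. The count was 7 to 10 without any 1 library, 10 without LSD replicates 2 and 3, and 6 without LSD replicates 1 and 4.

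Fatty acid synthesis is paid for in NADPH, and 7 of 9 genes of the pentose phosphate pathway and of other NADPH sources were called higher and 0 lower, with a median log2 difference of 1.19. Glucose-6-phosphate dehydrogenase (Zw) lay at 153, 146 and 158 in HSD and at 41.6, 55.3, 49.8 and 43.1 in LSD, and 6-phosphogluconate dehydrogenase (Pgd) at 418, 419 and 422 in HSD and at 105, 120, 115 and 113 in LSD. The 3 HSD values of Pgd differed by only 4 units. The transketolase CG8036 had 1419, 1489 and 1470 in HSD and 487, 633, 467 and 495 in LSD (2.82-fold, SE of the log2 difference 0.11, adjusted p = 0.00041). Malic enzyme (Men) averaged 2158 ± 119 in HSD and 886 ± 73.4 in LSD (log2 1.29, adjusted p = 0.00028). These calls were 6 to 8 of 9 without any 1 library.

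The glycerol backbone of triglyceride comes from glycolysis through glycerol-3-phosphate, and several of its genes were higher too. Glycerol-3-phosphate dehydrogenase (Gpdh, FBgn0001128), the cytosolic enzyme, lay at 2427, 2520 and 2576 in HSD and at 586, 852, 697 and 665 in LSD (log2 1.85, SE 0.12, adjusted p = 0.000263). The mitochondrial enzyme Gpo-1 (FBgn0022160), which oxidises the same metabolite, lay at 1047, 1022 and 1004 in HSD and at 259, 298, 243 and 249 in LSD (log2 1.97, SE 0.08, adjusted p = 3.63e-05). Minotaur (mino), an acyltransferase that adds the first acyl chain, averaged 199 ± 12 in HSD and 77.1 ± 17.7 in LSD (log2 1.39, adjusted p = 0.00238). In contrast, several enzymes between glucose and pyruvate, chosen after their values were seen, lay within the spread of the replicates. Phosphofructokinase (Pfk) averaged 453 ± 15.2 in HSD and 463 ± 26 in LSD (log2 -0.03, adjusted p = 0.767), and Tpi had a log2 difference of -0.03 (adjusted p = 0.865). Gapdh1 (0.08, adjusted p = 0.518) and Ald (0.11, adjusted p = 0.405) likewise did not pass, and Pfk, Tpi, Gapdh1 and Ald overlapped between the diets. Pfrx, whose product makes and removes the activator of Pfk, lay at 126, 114 and 104 in HSD and at 37.9, 60.5, 42.0 and 52.1 in LSD (log2 1.26, adjusted p = 0.00253). Over 18 genes of glycolysis and glycerol-3-phosphate metabolism 8 were called higher (44.4%, against 12.8% of all genes) and 1, ImpL3, lower.

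At the lipid droplet, coat protein genes were higher and a lipase gene was lower. Perilipin 1 (Lsd-1, FBgn0039114) lay at 311, 327 and 333 in HSD and at 88.2, 103, 83.1 and 81.5 in LSD (log2 1.86, SE 0.09, adjusted p = 6.78e-05). Perilipin 2 (Lsd-2) averaged 162 ± 6.52 in HSD and 90.4 ± 7.52 in LSD (log2 0.84), and the droplet protein Jabba averaged 71.6 ± 3.18 in HSD and 25.0 ± 3.46 in LSD (log2 1.51, adjusted p = 0.00041). Brummer (bmm, FBgn0036449), the main triglyceride lipase of the fat body, lay at 16.1, 12.7 and 12.6 in HSD and at 34.8, 30.9, 22.2 and 43.5 in LSD, which made it 2.29-fold lower (log2 -1.19, SE 0.21, adjusted p = 0.00778). All HSD values of bmm were below all LSD values, although its LSD values spread widely. In all, 9 of 20 genes of triglyceride storage and lipid droplets were called higher and 1 lower (median log2 difference 0.42), and the count called higher was 5 without HSD replicate 2 and 5 without LSD replicates 1 and 4.

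Genes of fatty acid oxidation were called at close to the shares of all genes. Of 19 such genes 2 were called higher and 2 lower, 10.5% each way, against 12.8% and 11.9% of all genes. The median log2 difference was 0.06. The 2 higher were 1 without any HSD library or without LSD replicate 1. The medium-chain acyl-CoA dehydrogenase CG12262 lay at 217, 193 and 234 in HSD and at 348, 398, 368 and 387 in LSD (log2 -0.81, SE 0.09, adjusted p = 0.00161). CG9914 (Had1 in RefSeq) averaged 579 ± 22.2 in HSD and 239 ± 32.8 in LSD (log2 1.28, adjusted p = 0.000711). Of 24 fatty acid elongases and reductases 0 were called higher and 1 lower. The 1 was 0 without any 1 library other than LSD replicate 4, without which it was 2, and 0 by edgeR. The elongase genes CG33110 and CG5278 varied with TwdlJ among libraries of each diet: CG33110 lay at 90.6, 14.8 and 102 in HSD and at 2.15, 20.9, 111 and 4.60 in LSD, and CG5278 at 181, 56.2 and 234 in HSD and at 13.8, 99.8, 219 and 20.9 in LSD. In both, LSD replicate 3 and HSD replicates 2 and 4 were high and LSD replicates 1 and 4 were low.

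**Figure D3:**
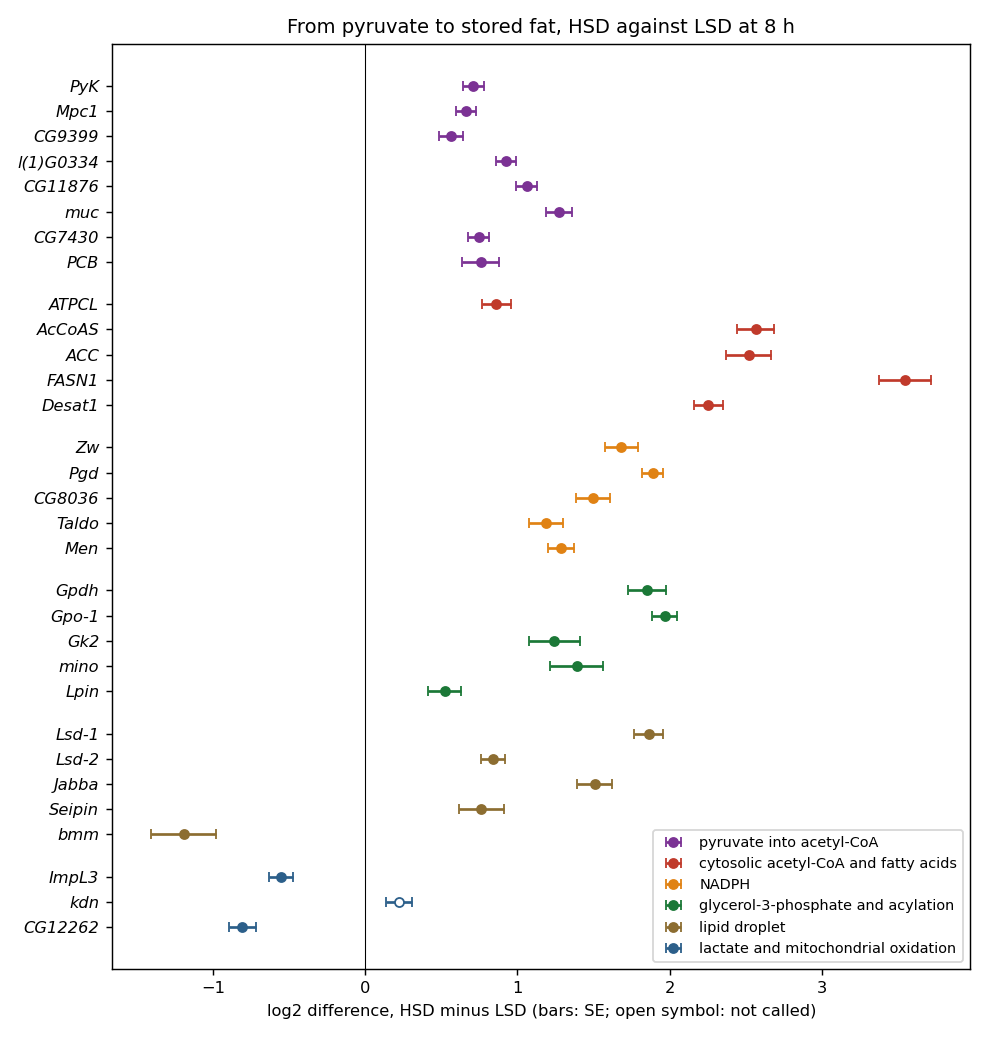
Log2 differences, HSD minus LSD, on the horizontal axis for 31 genes from pyruvate to the lipid droplet, coloured by step, with bars of 1 SE and an open symbol where the gene was not called. The points of acetyl-CoA to fatty acid synthesis reach 3.55 (FASN1), NADPH genes lie between 1.19 and 1.89, and bmm, ImpL3 and CG12262 lie left of 0.

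Trehalose is the blood sugar of insects and glycogen its store. Of 12 genes of both, 6 were called higher and 1 lower (4 higher without any HSD library in turn and without LSD replicate 1). Trehalose-6-phosphate synthase (Tps1) lay at 398, 370 and 379 in HSD and at 155, 212, 124 and 192 in LSD. CG5171, a trehalose-6-phosphate phosphatase gene, lay at 34.3, 33.5 and 38.2 in HSD and at 12.4, 17.5, 11.2 and 12.7 in LSD (log2 1.38, SE 0.15, adjusted p = 0.00154). The glycogen branching enzyme (AGBE) averaged 169 ± 7.24 in HSD and 95.5 ± 5.66 in LSD (SD, n = 3 and 4; log2 0.82, adjusted p = 0.00083), while glycogen synthase (GlyS) averaged 366 ± 13.5 in HSD and 334.3 ± 18.8 in LSD and did not pass (adjusted p = 0.214). Pyruvate carboxylase (PCB) averaged 886 ± 48.5 in HSD and 528 ± 80.8 in LSD (log2 0.76, adjusted p = 0.00535, and 0.0501 without LSD replicates 1 and 4). Fructose-1,6-bisphosphatase (fbp) had a log2 difference of -0.01 (adjusted p = 0.946).

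Among amino acid genes, of 19 genes of serine, one-carbon and glutamine synthesis 8 were called higher, 3 lower and 8 were not called, with a median log2 difference of 0.18. Of 32 genes of amino acid catabolism 4 were called higher and 12 lower (37.5%, against 11.9% of all genes), with a median log2 difference of -0.35. The count of 12 was 9 to 13 without any 1 library, whereas the count of 4 was 2 without each HSD library and without LSD replicate 1.

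On the synthetic side, the proline enzyme gene CG7470 (P5CS in RefSeq, pyrroline-5-carboxylate synthase, FBgn0037146) lay at 456, 431 and 423 in HSD replicates 2, 3 and 4 and at 71.8, 127, 76.4 and 113 in LSD replicates 1 to 4, a 4.62-fold difference (log2 2.21, SE 0.20, adjusted p = 0.000969). The serine pathway gene CG11899, a phosphoserine aminotransferase, had 62.5, 68.8 and 61.6 in HSD and 24.3, 27.5, 25.1 and 26.2 in LSD (2.47-fold, adjusted p = 0.000132). The next enzyme, phosphoserine phosphatase (aay), had 277, 279 and 251 in HSD and 71.1, 102, 94.7 and 92.4 in LSD (log2 1.58, adjusted p = 0.000565). Glutamine synthetase 1 (Gs1) lay at 712, 803 and 821 in HSD and at 261, 305, 292 and 279 in LSD. Argininosuccinate synthase (CG1315, Ass in RefSeq), which was on the catabolism list, averaged 32.5 ± 1.47 in HSD and 9.24 ± 3.16 in LSD (log2 1.82, adjusted p = 0.00265). The transsulfuration and methyl cycle genes Eip55E (log2 -0.66, adjusted p = 0.0017) and Ahcy13 (log2 -0.58, adjusted p = 0.00177) were lower in HSD.

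On the catabolic side, sarcosine dehydrogenase (Sardh, FBgn0034276), a mitochondrial enzyme that returns one-carbon units from sarcosine, lay at 7.40, 4.75 and 6.47 in HSD and at 43.1, 67.6, 40.5 and 49.0 in LSD. That was a 7.49-fold lower level (log2 -2.91, SE 0.21, adjusted p = 0.0003). Threonine dehydrogenase (CG5955, Tdh in RefSeq) lay at 15.1, 16.4 and 18.7 in HSD and at 49.8, 55.0, 66.7 and 41.4 in LSD (log2 -1.62, adjusted p = 0.00118). CG11796, the 4-hydroxyphenylpyruvate dioxygenase of tyrosine breakdown, averaged 103 ± 18.9 in HSD and 235 ± 26.3 in LSD (log2 -1.20, adjusted p = 0.00202). Ornithine aminotransferase (Oat) lay at 133, 97.1 and 95.0 in HSD and at 202, 229, 183 and 259 in LSD. In each of these 4 genes every HSD library was below every LSD library.

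Nucleotide genes were lower more often than higher. Of 27 genes of purine and pyrimidine metabolism 2 were called higher and 10 lower. The 2 were 1 to 3 without any 1 library, and the 10 were 5 without HSD replicate 2, 6 without LSD replicate 1 and 3 without LSD replicates 1 and 4. The large subunit of ribonucleotide reductase (RnrL), which makes deoxynucleotides, lay at 40.3, 43.0 and 39.3 in HSD and at 71.3, 63.6, 64.3 and 62.0 in LSD (log2 -0.67, adjusted p = 0.00166). AdSS, the adenylosuccinate synthetase of the AMP branch, went the other way, at 351, 349 and 339 in HSD and 205, 232, 186 and 227 in LSD (log2 0.71, adjusted p = 0.00238).

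Digestive protease genes were higher almost as a family. Of 27 trypsins and Jonah proteases 24 were called higher and 0 lower, with a median log2 difference of 1.29. LambdaTry (FBgn0043470) lay at 79.9, 84.0 and 67.8 in HSD and at 9.73, 20.2, 5.67 and 25.6 in LSD (log2 2.51, SE 0.47, adjusted p = 0.00878). Jon74E had 237, 170 and 157 in HSD and 36.3, 63.1, 24.6 and 64.0 in LSD (log2 2.07, adjusted p = 0.00605). The trypsin gene alphaTry had 155, 122 and 149 in HSD and 46.3, 73.7, 34.5 and 65.9 in LSD (log2 1.41, adjusted p = 0.00787). In all of lambdaTry, Jon74E and alphaTry the LSD libraries spread at least as widely in proportion as the HSD libraries, with replicate 3 lowest. The count of 24 was 11 without HSD replicate 2, 13 without HSD replicate 4 and 10 without LSD replicates 1 and 4. Trypsin, lysozyme and amylase genes have near-identical copies, so values of single copies are uncertain.

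Markers of the midgut moved with the proteases. All 7 midgut markers were measured and none was at 0: 6 were called higher and 0 lower, with a median log2 difference of 0.87, and their summed level was 1719 to 2152 in HSD libraries and 842 to 1355 in LSD libraries. Without HSD replicates 2, 3 and 4 the count of 6 was 2, 3 and 2. It was 3 without LSD replicate 1 and 1 without LSD replicates 1 and 4. The list shares alphaTry, betaTry and a Jonah protease with the protease list. Among the markers outside the proteases, the sterol transporter Npc1b had 61.0, 47.9 and 48.3 in HSD and 10.5, 27.2, 5.77 and 20.5 in LSD (log2 1.89, adjusted p = 0.0258), and the enterocyte gene mex1 averaged 66.5 ± 4.83 in HSD and 36.6 ± 9.87 in LSD (log2 0.89, adjusted p = 0.0202). Both calls ended without any 1 HSD library (0.0705 to 0.089 for Npc1b and 0.0608 to 0.0753 for mex1) and without LSD replicate 1 (0.0731 and 0.0574). Among LSD libraries, the medians of the midgut markers, the proteases, the UDP-glucuronosyltransferases and the cytochromes P450 were all highest in replicate 2 and lowest in replicate 3. What part a change in midgut RNA has in the digestive and detoxification results was not tested.

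Starch and sugar digestion did not move as a block. Of 13 maltases, amylases and tobi, 4 maltases were called higher and the 2 amylases lower. The 4 were 1 without HSD replicate 2 or 4, 2 without LSD replicate 1 and 1 without LSD replicates 1 and 4, and the 2 amylases were 1 without HSD replicate 3 or 4. The maltase gene Mal-A8 lay at 75.3, 54.9 and 82.8 in HSD and at 18.5, 28.4, 9.80 and 23.1 in LSD (log2 1.88, SE 0.34, adjusted p = 0.00778). The other 3 maltase calls, of Mal-A1, Mal-A6 and Mal-A7, ended without HSD replicate 2 (adjusted p = 0.0544 to 0.0814) and without HSD replicate 4 (0.0534 to 0.0794). Proximal amylase (Amy-p), an enzyme of starch digestion known to be repressed by glucose, lay at 16.6, 9.83 and 9.91 in HSD and at 44.4, 53.2, 26 and 69.1 in LSD (log2 -1.91, SE 0.33, adjusted p = 0.00716, and 0.0512 without LSD replicates 1 and 4). Its level in LSD replicate 3 was the lowest of the LSD libraries, as for the proteases, while its difference between diets ran the other way. Of 15 gut lipases 2 were called higher and 3 lower. The 2 were 0 without HSD replicate 2 or 3 or LSD replicate 1, and 1 without HSD replicate 4 or LSD replicate 3, and the 3 were 5 without LSD replicate 3.

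Sugar transporter genes went both ways. Of 21 genes 7 were called higher and 2 lower (5 to 7 and 1 to 3 without any 1 library), with a median log2 difference of 0.10. The transporter CG1213 lay at 57.1, 81.2 and 61.2 in HSD and at 13.5, 17.3, 12.6 and 14.7 in LSD (log2 2.15, SE 0.15, adjusted p = 0.0003), and CG4797 (pippin in RefSeq) at 26.4, 25.5 and 21.7 in HSD and at 7.07, 9.50, 5.46 and 8.66 in LSD (log2 1.64, adjusted p = 0.00166). Sut1 went down, at 44.2, 43.4 and 33.5 in HSD and 111, 152, 96.5 and 127 in LSD (log2 -1.57, adjusted p = 0.00156). Of 21 amino acid transporter genes 6 were called higher and 1 lower, a count of 6 that was 3 without LSD replicates 1 and 4.

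Detoxification families held more genes called higher than called lower. UDP-glucuronosyltransferases attach sugar to small molecules for export, and 20 of 29 were called higher and 0 lower, with a median log2 difference of 0.99. The count was 11, 12 and 10 without HSD replicates 2, 3 and 4, 12 without LSD replicate 1 and 11 without LSD replicates 1 and 4. CG5724 (Ugt37A2 in RefSeq, FBgn0038082) lay at 30.6, 32.8 and 40.1 in HSD and at 1.99, 5.63, 1.75 and 5.21 in LSD, a 9.29-fold difference (log2 3.22, SE 0.38, adjusted p = 0.00213). CG15661 averaged 28.7 ± 0.81 in HSD and 8.75 ± 2.26 in LSD (SD, n = 3 and 4; log2 1.69, adjusted p = 0.00161).

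Cytochromes P450 oxidise lipids, hormones and toxins. Of 67 genes 28 were called higher and 3 lower, with a median log2 difference of 0.46, and the 28 were 14, 14 and 12 without HSD replicates 2, 3 and 4 and 15 without LSD replicates 1 and 4. Cyp311a1 had 7.34, 6.11 and 5.32 in HSD and 0.742, 1.71, 0.530 and 1.76 in LSD (log2 2.08, SE 0.31, adjusted p = 0.00393). Cyp28d1 was the strongest exception, at 28.7, 15.9 and 22.4 in HSD and 74.3, 99.2, 72.2 and 95.6 in LSD (log2 -1.93, SE 0.21, adjusted p = 0.00154). Of 33 glutathione transferases 15 were called higher and 2 lower. Without LSD replicates 1 and 4 the 15 were 10, and the 2 were 1 to 4 without any 1 library. GstE9 averaged 69.6 ± 6.51 in HSD and 22.3 ± 5.42 in LSD (log2 1.64, adjusted p = 0.00153), while GstD3 averaged 38.0 ± 1.95 in HSD and 74.6 ± 4.98 in LSD (log2 -0.96, adjusted p = 0.000548).

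Among 23 genes of redox and metal defence 11 were called higher and 0 lower, with a median log2 difference of 0.38. Without HSD replicates 2, 3 and 4 the 11 were 4, 7 and 4. They were 6 without LSD replicate 1 and 4 without LSD replicates 1 and 4. The ferritin light chain gene (Fer2LCH), which stores iron, averaged 391 ± 16.3 in HSD and 254.97 ± 34.5 in LSD (log2 0.63, adjusted p = 0.00767), and the extracellular superoxide dismutase Sod3 averaged 41.6 ± 2.27 in HSD and 24.0 ± 3.94 in LSD (log2 0.80, adjusted p = 0.00487). Catalase (Cat) did not pass, at 196 ± 8.05 in HSD and 151 ± 34.3 in LSD (adjusted p = 0.121).

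Genes for building ribosomes were lower in HSD, while most genes of the ribosome's own proteins were not called. Of 37 nucleolar and ribosome biogenesis factors 35 were called lower and 1 higher, against 11.9% and 12.8% of all genes, with a median log2 difference of -0.84. The 35 were 33 to 36 without any 1 library. Surf6 (FBgn0038746), a nucleolar protein of rRNA processing, lay at 19, 21.1 and 21.4 in HSD and at 51.1, 56.1, 55.6 and 40.0 in LSD (log2 -1.27, SE 0.13, adjusted p = 0.00123). NHP2, a protein of the H/ACA snoRNPs that guide pseudouridine, lay at 42.7, 51.9 and 41.2 in HSD and at 109, 115, 108 and 77.7 in LSD (log2 -1.16, adjusted p = 0.00259). In both, LSD replicate 4 was the lowest LSD library and still above every HSD library. The snoRNP protein gene nop5 showed the same order, at 115, 130 and 114 in HSD and 247, 257, 251 and 192 in LSD. Non1, a nucleolar GTPase gene, was the one called higher, with a log2 difference of 0.53, and its adjusted p was 0.0542 without HSD replicate 3 and 0.0521 without LSD replicates 1 and 4.

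RNA polymerases I and III transcribe rRNA, tRNA and 5S RNA. Of 18 of their genes 0 were called higher and 14 lower (median log2 difference -0.55), a count that was 8 without HSD replicate 2, 9 without HSD replicate 4 and 9 without LSD replicate 1. The polymerase I subunit gene RpI12 had 4.59, 5.95 and 4.33 in HSD and 11.9, 10.9, 14.2 and 9.15 in LSD (log2 -1.14, adjusted p = 0.00381). In contrast, the median log2 difference of 86 cytoplasmic ribosomal protein genes was 0.04, with 2 called higher and 1 lower. The 2 were 0 without any HSD library or LSD replicate 1 or 4, and the 1 was 0 without any HSD library or LSD replicate 1 and 2 without LSD replicate 2 or 4. RpL3 averaged 2728 ± 143 in HSD and 2451 ± 102 in LSD and did not pass (log2 0.15, adjusted p = 0.177). Of 74 mitochondrial ribosomal protein genes 0 were called higher and 4 lower, and the 4 were 0 to 7 without any 1 library (0 without HSD replicate 3 or 4, 1 without HSD replicate 2 or LSD replicate 1, 2 without LSD replicate 2 or 3 and 7 without LSD replicate 4).

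Aminoacyl-tRNA synthetases charge tRNAs with amino acids, in separate sets for cytoplasm and mitochondria. Of 18 synthetase genes without a mitochondrial symbol 15 were called lower and 0 higher, at log2 differences of -0.52 to -0.09 with a median of -0.39. The 15 mitochondrial ones had a median of 0.09, with 2 called higher and 1 lower. LysRS lay at 127, 127 and 117 in HSD and at 184, 177, 180 and 170 in LSD (log2 -0.52, SE 0.06, adjusted p = 0.00235), and MetRS at 82.7, 79.0 and 76.5 in HSD and at 119, 105, 118 and 110 in LSD (log2 -0.50, adjusted p = 0.00349). Over both sets, 16 of 33 were called lower, and the 16 were 11 to 16 without any 1 library and 10 without LSD replicates 1 and 4. The 2 called higher were 0 without HSD replicate 2, HSD replicate 4 or LSD replicate 1, and 1 without HSD replicate 3 or LSD replicate 3. The differences of LysRS and MetRS were small beside those of the lipogenic genes. The groups did not overlap for either gene, as for nearly all called genes.

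Translation factors and DNA replication genes were partly lower. Of 43 translation factors 0 were called higher and 17 lower. The 17 were 8, 9 and 9 without HSD replicates 2, 3 and 4, 10 without LSD replicate 1, and 10 without LSD replicates 2 and 3 or without LSD replicates 1 and 4. The elongation factor subunit eEF1delta averaged 213 ± 4.56 in HSD and 368 ± 33.4 in LSD (SD, n = 3 and 4; log2 -0.78, adjusted p = 0.00163), and eIF6, which keeps the large ribosomal subunit free, averaged 48.4 ± 3.17 in HSD and 82.9 ± 5.38 in LSD (log2 -0.77, adjusted p = 0.00142). Of 35 DNA replication and cell cycle genes 0 were called higher and 22 lower, and the 22 were 11 without HSD replicate 2, 14 without HSD replicate 3 or 4, and 11 without LSD replicates 1 and 4. The replication clamp PCNA lay at 44.3, 46.0 and 47.1 in HSD and at 80.8, 66.7, 84.6 and 64.4 in LSD (log2 -0.68, SE 0.11, adjusted p = 0.00545). The growth regulator Myc averaged 69.3 ± 3.32 in HSD and 79.1 ± 11.6 in LSD and did not pass (log2 -0.18, adjusted p = 0.29).

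**Figure D4:**
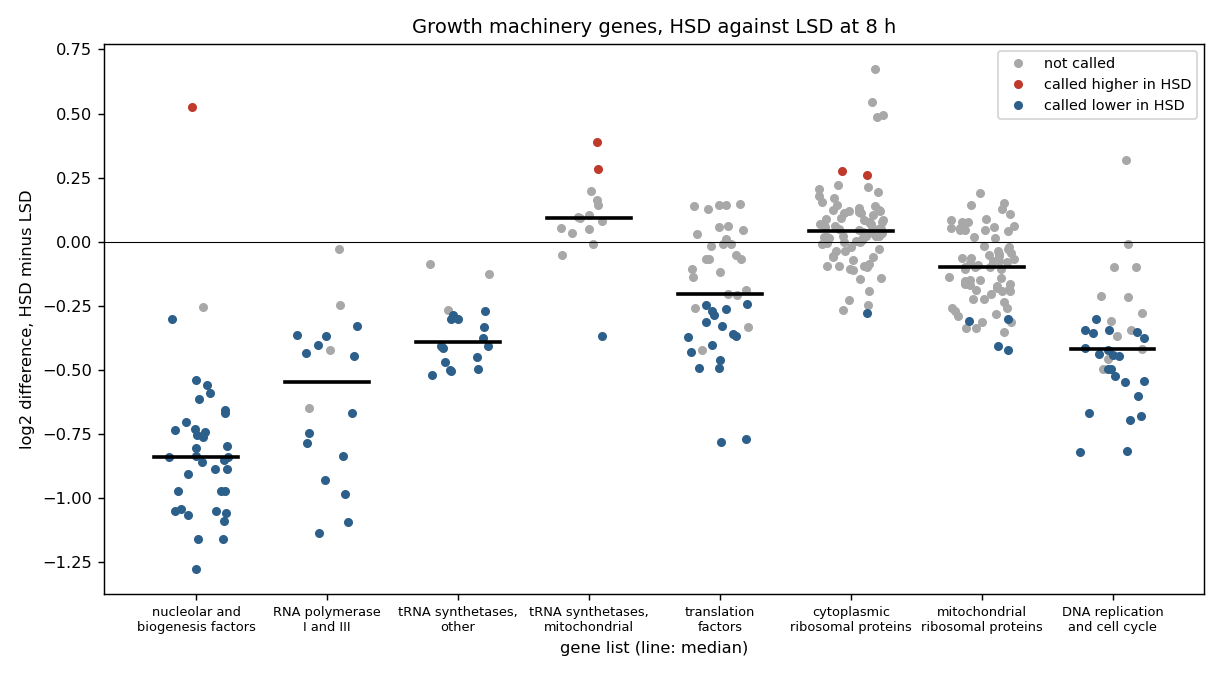
Each point is 1 gene of the list named on the horizontal axis, at its log2 difference, HSD minus LSD, on the vertical axis, with red and blue for genes called higher and lower in HSD and a black line at the list's median. The medians lie at -0.84 for nucleolar factors and -0.55 for RNA polymerases I and III, and at 0.04 for cytoplasmic ribosomal proteins.

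A high-sugar diet is also an osmotic load. Of 33 genes of osmotic, ion and Malpighian tubule transport 9 were called higher and 1 lower, and the 9 were 6 to 11 over the settings that leave out libraries. The 1 was 0 without HSD replicate 2 or LSD replicate 1 or 4. The sodium/proton antiporter gene Nha2 lay at 52.6, 55.5 and 49.4 in HSD and at 24.2, 25.9, 22.6 and 28.2 in LSD (log2 1.05, SE 0.09, adjusted p = 0.000713). The aquaporin gene AQP averaged 10.4 ± 0.302 in HSD and 6.07 ± 0.955 in LSD (log2 0.75, adjusted p = 0.00539). Of 23 V-ATPase subunit genes, the proton pump of gut and tubule, 5 were called higher and 0 lower, with a median log2 difference of 0.42. That count was 0, 1 and 0 without HSD replicates 2, 3 and 4, 1 without LSD replicate 1, 14 without LSD replicate 2, 13 without LSD replicates 2 and 3, and 0 without LSD replicates 1 and 4. Myo-inositol oxygenase (CG6910, Miox in RefSeq, FBgn0036262), which opens the inositol ring and is known to respond to diet, lay at 44.9, 34.3 and 39.9 in HSD and at 137, 152, 156.4 and 134 in LSD (log2 -1.86, SE 0.11, adjusted p = 0.000132). Sorbitol dehydrogenase 1 (Sodh-1), which turns sorbitol into fructose, averaged 60.1 ± 7.78 in HSD and 115 ± 8.96 in LSD (log2 -0.94, adjusted p = 0.00189).

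Small lipid- and odorant-binding protein genes split by member. Npc2 proteins bind sterols and lipids, and of 8 genes 4 were called higher and 3 lower. Npc2c lay at 19.7, 45.9 and 23.7 in HSD and at 0.703, 3.42, 1.75 and 2.12 in LSD (log2 3.63, SE 0.43, adjusted p = 0.00206), and Npc2d at 38.5, 44.3 and 41.3 in HSD and at 2.85, 9.09, 2.54 and 7.75 in LSD (log2 2.97, adjusted p = 0.0035). Npc2g went down, at 61.6, 62.8 and 62.5 in HSD and 102, 110, 122 and 103 in LSD (log2 -0.80, adjusted p = 0.0012). Of 20 odorant-binding protein genes 2 were called lower and 0 higher. Obp99a (FBgn0039678) lay at 35.1, 31.7 and 36.1 in HSD and at 163, 141, 173 and 134 in LSD (log2 -2.13, SE 0.11, adjusted p = 6.78e-05).

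The genes with the largest single differences included several without a textbook role. CG1774 (FBgn0039856) lay at 550, 598 and 531 in HSD and at 33.9, 43.6, 25.2 and 36.6 in LSD (log2 4.01, SE 0.17, adjusted p = 3.63e-05). Nearby on 3R, the long noncoding RNA gene CR45190 (FBgn0266700, 31588279 to 31590411) lay at 12.6, 11.1 and 11.3 in HSD and at 0.156, 0.301, 0 and 0.363 in LSD (log2 4.14, SE 0.20, adjusted p = 6.78e-05), and CG1774 spans 31592803 to 31594719 on the other strand. CR45190 is annotated antisense to CG1635, which overlapped between the diets, at 71.4 ± 3.05 in HSD and 61.8 ± 8.82 in LSD (adjusted p = 0.21). Without the strand setting, reads of this pair cannot be told apart with certainty. CG14205 lay at 354, 406 and 326 in HSD and at 4.53, 41.0, 9.96 and 68.9 in LSD (log2 4.19, SE 0.85, adjusted p = 0.012), so its HSD level was even and its LSD level spread widely. CG15369 fell most, to 1.32, 1.15 and 0.730 in HSD, against 15.1, 12.4, 19.97 and 9.09 in LSD (log2 -3.19, SE 0.26, adjusted p = 0.000625). CG13962 was the most even of the genes that fell most, at 9.12, 9.22 and 10.0 in HSD and 39.5, 38.9, 36.2 and 35.7 in LSD (log2 -1.93, SE 0.07, adjusted p = 3.07e-05). Of 148 long noncoding RNA genes 20 were called higher (13.5%, against 12.8% of all genes) and 6 lower. The 20 were 8, 7 and 10 without HSD replicates 2, 3 and 4, 12 without LSD replicate 1 and 5 without LSD replicates 1 and 4, and the 6 lower were 1 to 12 over the same settings and the other single libraries.

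Cuticle protein genes varied between libraries of the same diet. Of 67 Cpr, Lcp and Ccp cuticle protein genes 3 were called higher and 0 lower. The 3 were 1 without HSD replicate 3, LSD replicate 1 or LSD replicate 4, and 6 without LSD replicate 2. Without LSD replicates 2 and 3, which were picked by a cuticle gene, 14 were called higher, so this count is no test of the list. Lcp3, a larval cuticle protein gene, was among the 3 and lay at 3.33, 7.75 and 5.22 in HSD and at 0.0781, 0, 0.318 and 0.121 in LSD (log2 3.19, SE 0.29, adjusted p = 0.000902). In LSD replicates 1, 2 and 4 its values were below those of 3 reads, which are 0.117, 0.151 and 0.182. Over the alternative settings the log2 difference of Lcp3 ran from 2.46 to 5.39, so its size is uncertain. At these levels the LSD libraries cannot show whether Lcp3 follows TwdlJ, and this was not tested. Of 22 genes of ecdysone synthesis and response 1 was called higher and 0 lower. That gene was shade (shd), which makes the active molting hormone, at 8.72, 10.8 and 6.52 in HSD and 2.46, 1.51, 1.80 and 5.33 in LSD (log2 1.59, SE 0.36, adjusted p = 0.0187). Its call ended without HSD replicate 2 (0.0654) or 3 (0.0723), without LSD replicate 1 (0.0524) and without LSD replicates 2 and 3 (0.0603). The ecdysone receptor gene EcR averaged 55.3 ± 5.56 in HSD and 48.6 ± 3.19 in LSD (log2 0.18, adjusted p = 0.184).

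Markers of other tissues were counted in the same way. Of 15 muscle markers 1 was called higher and 1 lower, and their summed level was 43632 to 48063 in HSD libraries and 46168 to 55268 in LSD libraries. The median of the muscle markers, relative to LSD means on the log2 scale, was lower in every HSD library (-0.28 to -0.13) than in every LSD library (-0.10 to 0.17). Of 10 neuron markers 0 were called higher and 2 lower, and the 2 were 0 to 3 without any 1 library (0 without any HSD library or LSD replicate 1). Of 8 hemocyte markers 1 was called higher (12.5%, against 12.8% of all genes), with a median log2 difference of 0.51. Of 4 salivary gland markers 1 was higher (median 0.55), and of 7 Malpighian tubule markers 1 was lower (median 0.09). Without HSD replicate 4 the hemocyte and salivary gland medians were both 0.24. The hemocyte count of 1 was 0 without HSD replicate 2 or 4 and without LSD replicate 1, 3 or 4, and 3 without LSD replicate 2. The gene called, PPO2, also lost its call without HSD replicate 3 (limma adjusted p = 0.0575), where another marker was called instead. The Malpighian tubule call was lost without HSD replicate 2, LSD replicate 1 or LSD replicate 4. The call of the higher muscle gene was lost without HSD replicate 3, HSD replicate 4 or LSD replicate 1, and 2 muscle markers were called lower without LSD replicate 3. The salivary gland count of 1 was 1 without any 1 library. Of the fat body markers only 1 was tested, and it was not called (log2 -0.29). It lay at 6029 in LSD replicate 2, against 3105 to 3508 in the other LSD libraries. The larval serum protein genes of the fat body and the Sgs glue protein genes of the salivary gland were not analysed here.

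**Figure D5:**
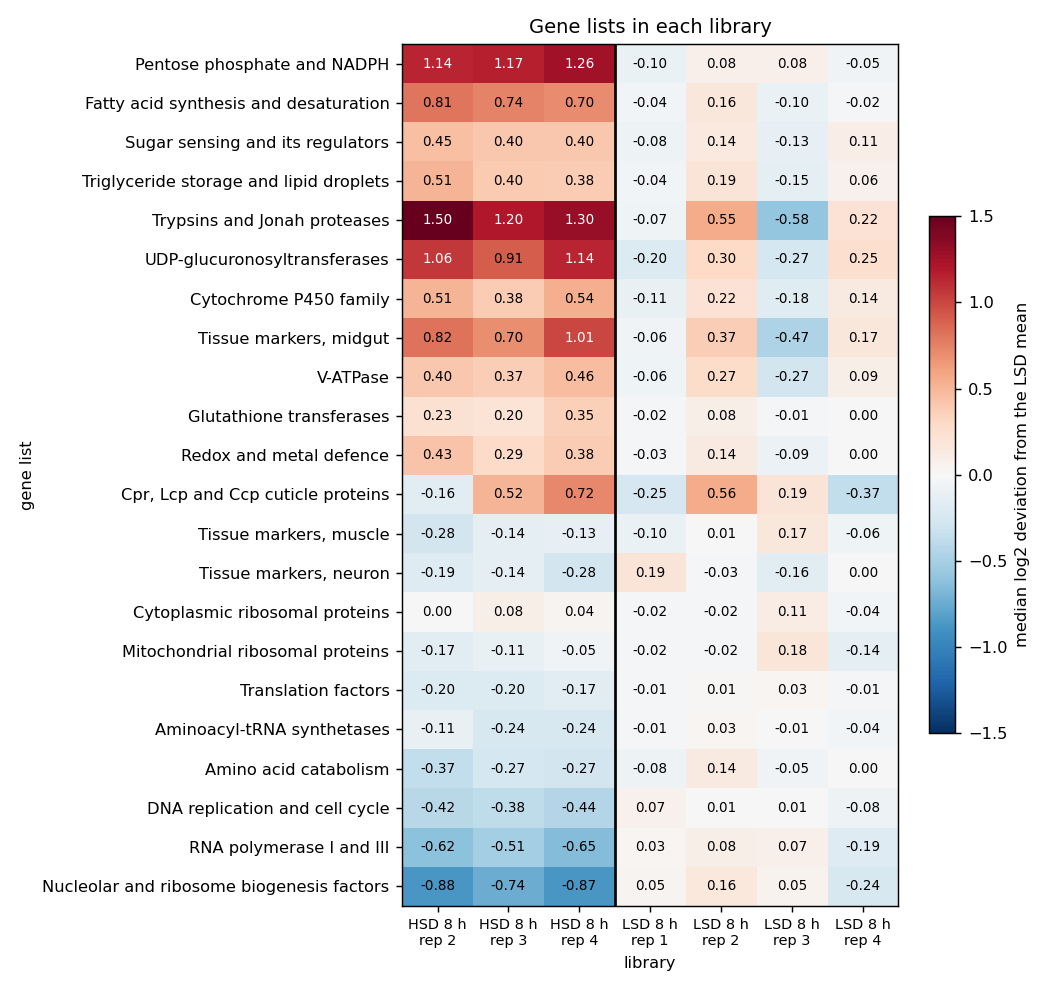
Rows are 22 gene lists and columns the 7 libraries, HSD left of LSD; each cell gives the median over the list's genes of log2 level minus the gene's mean log2 level in LSD, with red above and blue below 0. The pentose phosphate row lies at 1.14 to 1.26 in HSD and -0.10 to 0.08 in LSD, the protease row at 1.20 to 1.5 in HSD and -0.58 to 0.55 in LSD, and the cuticle row overlaps between the diets.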

How the data were processed

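Whole larvae were measured, and the sample titles gave each library's diet, time and replicate number. Libraries were TruSeq Stranded, from RNA without ribosomal RNA, and were read in 2 technical runs as single-end reads of 75 bp, per the labels' protocols. Trimmomatic, TopHat2 2.1.0, HTSeq 2.7.6 (version as listed there) and limma were used by the authors, per the submitters' processing notes. The sources used here do not give their build, annotation, use of strand or gene filter. The deposited per-library signal values of 10128 genes are read counts that the authors divided by an effective library size. All of them (100%) were whole multiples of 1 read within 0.01 read, which gave the reads per library. The authors' own coefficients and p-values were not used. Intervals and floors from reads cover counting error only.

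Here log2(value + 0.5) was fitted with limma 3.58.1 in R 4.3.3 (variance trend, 1 mean per diet, 5 residual degrees of freedom) in the 10015 genes at 1 or more in at least 3 of the 7 libraries, and 113 genes were not tested. P-values are two-sided and adjusted by Benjamini-Hochberg over these genes. Log2 differences are HSD minus LSD on that scale, where changes of low genes come out too small, and folds are these differences turned back to ratios. EdgeR 4.0.16 on the recovered reads was an alternative. Tested on simulated data for HSD against LSD over 9943 genes, the fit recovered 16%, 42%, 70% and 96% of 50 genes each changed 1.3-, 1.5-, 2- and 4-fold, and called 4 unchanged genes. Far fewer genes were changed there than were called in the data, so these rates do not carry over directly. The simulated scatter was also drawn for each gene on its own, without shifts that many genes of a library share. False calls from such shifts are not covered by it.

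The members and the 58 gene lists were chosen with earlier results of these data known. Lists are described by counts and medians, with no test of a list. The naming rule took anchor genes of the lists, the 10 largest rises and falls (called, groups not overlapping, higher mean at least 5), and up to 4 called members per list in its main direction and 2 in the other. Ald, Tpi, Gapdh1, Pfk, Idh, FASN2, FASN3, SREBP, Myc, RpL3, CG1635, CG33110 and CG5278 lie outside the rule and were chosen after their values were seen. Gene positions are those of the Ensembl 115 annotation of BDGP6.54, matched by gene ID (9990 of 10128).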

Additional observations from a re-analysis of the deposited data

Results flagged for a closer look

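In 15 of the 235 genes named by the rule, 1 of the 4 LSD libraries lay far from the other 3: its gap to the nearest, divided by the group's whole range, was above Dixon's 95% critical value for 4 values. Chance alone flags about 1 in 20 groups. Groups of 3, such as HSD, were not examined in this way.

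LSD replicate 4 stood apart in 5 genes. It had 274 for Thor (ratio 0.831), against 118 to 144 in the other LSD libraries, and 17.8 for bigmax (0.881), against 13.1 to 13.7. It had 192 for nop5 (0.838), against 247 to 257, and 25.6 for the RNA polymerase subunit gene CG3756 (0.856), against 32.9 to 34.2. For the prophenoloxidase PPO2 (0.848) it had 8.36, against 12.8 to 13.6.

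LSD replicate 3 stood apart in 4 genes. It had 2.75 for the transporter CG6484 (0.900), against 4.57 to 4.77, and 517 for the ER chaperone Gp93 (0.938), against 736 to 750. It had 39.9 for mRpS18B (0.855), against 33.6 to 34.5, and 8.53 for Npc2f (0.831), against 9.75 to 9.99.

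LSD replicate 2 was high in 633 for CG8036 (0.831), against 467 to 495, in 29.5 for the amino acid transporter genderblind, gb (0.845), against 25.7 to 26.3, and in 102 for Lsd-2 (0.909), against 86.1 to 87.5. LSD replicate 1 had 87.2 for AGBE (0.834), against 97.5 to 99.6, 25.7 for the diuretic hormone gene Dh44 (0.898), against 21.1 to 21.6, and 22.9 for the peroxiredoxin Prx2540-2 (0.877), against 34.6 to 36.2.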

How the results depend on the processing

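The count of 2473 genes (1279 higher in HSD, 1194 lower) was within 1.5 times under other pseudocounts, filters, scalings, weights and fits, at 2410 (no trend) to 3588 (array weights), and edgeR called 2488 (1374 higher, 1114 lower). It was smaller at an adjusted p under 0.01, with 1007 calls (495 higher and 512 lower), since the threshold is stricter. Leaving out LSD replicates 1 and 4, chosen after seeing the data, gave 1182 (567 and 615). Leaving out 1 library in turn gave 1252 to 2834 calls, 629 to 1521 higher and 623 to 1313 lower, with fewer samples in each fit. Quantile normalization moved the split, with 44.7% of calls higher (1161 of 2600), against 51.7% as reported. With a replicate block on replicates 2, 3 and 4 of both diets 392 genes were called (228 and 164), with fewer libraries in that fit. There the 35 nucleolar factors called lower were 18, the 22 DNA replication genes 1 and the 17 translation factors 2. The 16 synthetases called lower and the 11 redox genes called higher were both 0. The 9 fatty acid synthesis genes called higher were 6, and the 7 pentose phosphate and NADPH genes 5. Same-numbered libraries deviated apart over all genes (correlations -0.25, -0.14 and -0.46). The labels do not say what a replicate number shares, so these correlations cannot tell whether the numbers pair the samples. Of the 231 named genes called, 92 kept the call under all 21 alternatives, 139 lost it under at least 1, and 0 reversed. Depth limits genes near 3 reads, a value of 0.117 to 0.182. The share of promoters with motifs was planned but not run, as no promoter sequences were used here.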
